A study of Danio rerio with 16 samples.

Results

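Sorted reporter-positive brain cells of 2 zebrafish lines were compared with the reporter-negative cells of the same lines, and the genes whose fitted changes had the same sign in both lines are described. For each gene, the average of the GCaMP6s-positive and GFP-positive means was set against the average of the GCaMP6s-negative and GFP-negative means, with all 16 libraries of the series in 1 model. Of 20241 genes tested, 3136 passed in this average contrast, and 2369 of these had a fitted change of the same sign in each line. In that same-direction set, 730 genes were higher in reporter-positive cells (3.61% of genes tested) and 1639 were lower (8.1%). The balance of the 2 directions depended on the filter on low counts, which a gene can pass through 1 fraction alone. With a stricter filter (1 CPM, or count-per-million, or more in at least 8 libraries), 817 were higher and 1143 lower of 16191. The higher genes then made up 41.7% of the same-direction set, against 30.8%. The positive or the negative libraries of both lines together can still meet this stricter filter alone. Large shares of lower genes lay in the lists for red blood cells, differentiating neurons, and the midbrain, hindbrain and cerebellum. The list of histone and high-mobility-group genes, which holds a few other chromatin genes, had a large share too, but it was made after values were seen. Among the 14 genes with the largest shared increase were atp2a3, for a calcium pump, sulf2b, for a heparan sulfate-editing enzyme, and ch25hl2, for a cholesterol hydroxylase. Below, a gene counted as higher or lower in both lines passed in the average contrast with the same fitted sign in each line, and it need not have passed within either line. Counts given for a gene list are to be read beside the shares of all genes tested, 3.61% higher and 8.1% lower. Where the genes counted also have no overlap of positive and negative libraries in either line, those shares are 0.781% higher and 2.86% lower.

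Whole brains of fish aged 1 month were dissociated with papain, the cells were sorted by fluorescence, and 8 brains were pooled for each of 4 biological replicates a group. The GCaMP6s-positive cells came from Tg(76A:Gal4FF;UAS:GCaMP6s), in which the 76A Gal4FF driver switches on a fluorescent calcium sensor, and the labels call them LH (lateral hypothalamus) cells. GCaMP6s-negative cells are the non-LH fraction of that line. The GFP-positive cells came from Tg(116A:Gal4FF;UAS:GFP), in which the 116A driver switches on green fluorescent protein, and are called cH (caudal hypothalamus) cells, against GFP-negative cells, the non-cH fraction. All 4 groups carry a Gal4FF driver and a UAS reporter. A cell is positive where its driver is active, so the positive fractions are defined by a transgene and not by dissection, and the labels do not say which cell types the negative fractions hold. Below, + and - after GCaMP6s or GFP mark the positive and negative fractions. Libraries were made from polyadenylated RNA by a SMART-seq v2 protocol with 16 cycles of cDNA amplification. Values are CPM (counts-per-million) scaled by TMM, a correction for RNA composition, and fold changes are log2 values of + over -, with their standard errors (SE).

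The hypothalamus is a forebrain region that controls feeding, growth, water balance and the pituitary through neurons that release neuropeptides and monoamines. In fish it also keeps radial glia, which line the ventricle and act as stem cells. Its regions are laid out by transcription factors such as the Nkx2 homeobox family and by the signalling protein Sonic hedgehog, while the En, Pax2 and Pax7 genes pattern the midbrain and hindbrain.

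Library totals ran between 26848940 and 49350823 counts. The GFP+ libraries stood apart. They held 15205 ± 1890 detected genes, against 19994 ± 785 in GFP- libraries, while GCaMP6s+ libraries held 19783 ± 300, against 20825 ± 195 in GCaMP6s- libraries (SD, n = 4 each). GFP+ replicates 1 and 2 held 13478 and 13663 genes, and GFP+ replicates 3 and 4 held 16793 and 16887. Replicates correlated at a median r of 0.725 among GFP+ libraries, against 0.922 among GFP- libraries, and at 0.934 among GCaMP6s+ libraries, against 0.954 among GCaMP6s- libraries, across genes on log2(CPM + 1). With GFP+ replicates 1 and 2 set aside, 1272 genes were higher and 2203 lower in the average contrast with a shared sign, of 22022 tested, and 154 and 306 passed within each line, and 2009 of the 2369 genes were among them. In bulk libraries, fewer cells of a type and less RNA per cell cannot be told apart.

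The fitted changes of the 2 lines had little in common. Over all genes tested, 51.2% had fitted changes of the same sign in both lines, and across genes the changes correlated at a Pearson r of 0.119 and a Spearman rank coefficient of 0.0312 (a description over genes, which are not independent; the lines share no library). The average contrast called 951 genes higher (4.7%) and 2185 lower (10.8%), and 767 of these (3.79%) had opposite signs in the lines. In this joint model the fitted changes were larger in the GFP line for most of the same-direction genes. Among the same-direction genes, 617 of 730 higher and 1375 of 1639 lower genes had the larger absolute change in the GFP line. Their median changes were 0.63 in the GCaMP6s line and 1.92 in the GFP line for the higher genes, and -1.19 and -5.56 for the lower genes, while 650 of the lower genes had no count in any GFP+ library, so that the last median rests on fitted values that are no bound.

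Stricter rules left fewer genes. All 4 + libraries lay on 1 side of all 4 - libraries in each line for 158 higher same-direction genes (0.781% of genes tested) and for 578 lower ones (2.86%). Of all genes, 163 higher (0.805%) and 748 lower (3.7%) kept this separation whatever their p. Within the GCaMP6s line 123 genes were called higher (0.608%) and 215 lower (1.06%), and within the GFP line 1425 higher (7.04%) and 2712 lower (13.4%). These counts depended on the model, in which all groups share 1 estimate of the spread. Fitted alone, the GCaMP6s line had 1334 higher (7.14%) and 1165 lower (6.24%) of 18674 genes tested, and the GFP line 872 higher (5.05%) and 1182 lower (6.85%) of 17265, so that the GCaMP6s line then had more calls in all (2499) than the GFP line (2054). In the joint model, genes that passed within each line numbered 42 higher (0.207%) and 93 lower (0.459%). These 42 made up 34.1% of the genes called higher in the GCaMP6s line and 2.95% of those in the GFP line, and the 93 made up 43.3% and 3.43% of the lower calls. With the lines fitted alone, 89 higher and 181 lower genes passed in each. In the joint model another 29 genes passed as higher in the GCaMP6s line and lower in the GFP line, and 34 as lower in the GCaMP6s line and higher in the GFP line. The counts of 42 and 93 turned on single libraries: without GFP+ replicate 2 they were 88 and 159, without GFP+ replicate 1 the higher count was 75, without GCaMP6s+ replicate 2 the counts were 24 and 46, and without GCaMP6s+ replicates 1, 3 or 4 the lower count was 35, 47 or 48. Leaving out GCaMP6s- replicates 1, 2, 3 or 4 gave 20, 24, 26 or 22 higher genes and 41, 41, 47 or 43 lower genes.

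**Figure D1:**
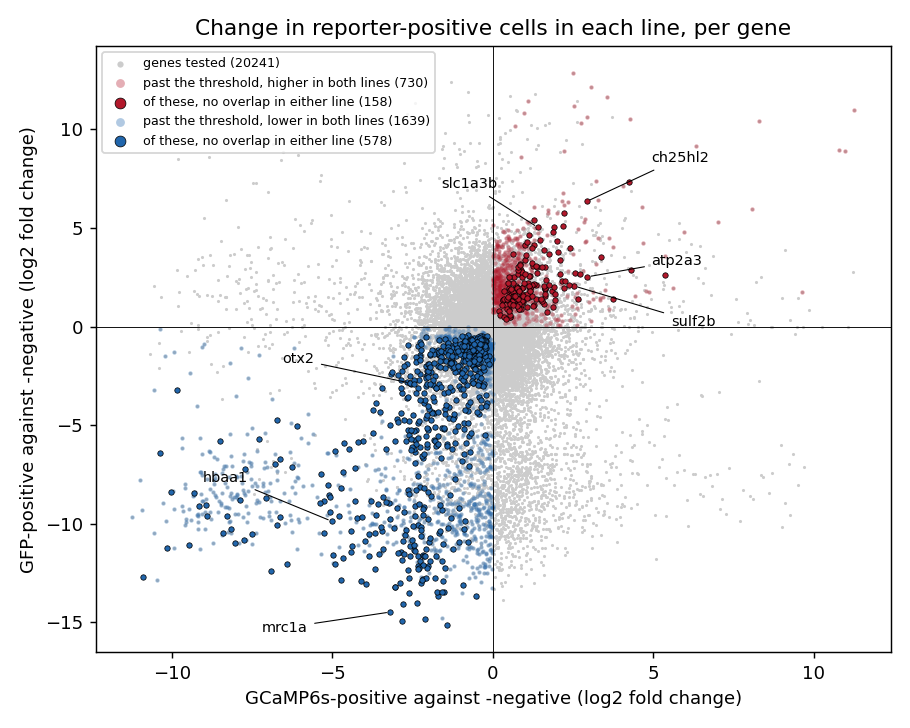
Log2 fold change in the GCaMP6s line (x axis, GCaMP6s+ over GCaMP6s-) and in the GFP line (y axis, GFP+ over GFP-), 1 point per gene for 20241 genes. Red and blue points are the 730 and 1639 genes that passed in the average contrast with 1 sign in both lines, and outlined points are the 158 and 578 whose + and - libraries did not overlap in either line. Values for genes at 0 in a group depend on the fit, and most coloured points lie nearer the vertical axis than the horizontal one.

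Both sets of 14 genes, with the largest shared increase and decrease, were drawn only from genes without overlap in either line. The separation of their groups was thus set by the choice and is no result. Among the 14 genes with the largest shared increase, 4 bear on calcium stores and diacylglycerol and were grouped after their values were seen. The gene atp2a3 encodes the SERCA3 pump, which moves calcium into the endoplasmic reticulum. It was at 321, 350.4, 328 and 300.5 CPM in GCaMP6s+ libraries, against 51.3, 23.7, 42.6 and 50.7 in GCaMP6s- libraries. In GFP+ libraries atp2a3 was at 122, 172, 252 and 219.9 CPM, against 18.4, 21.9, 55.5 and 37.3 in GFP- libraries. The average change was 2.74 ± 0.25 (SE; adjusted p = 5.17e-06, edgeR's quasi-likelihood test with Benjamini-Hochberg adjustment, which gives all adjusted p-values here).

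The other three encode kinases. The gene prkcda, for protein kinase C delta, was at 108, 114, 101 and 48.2 CPM in GCaMP6s+ libraries, against 13.9, 25.8, 39.8 and 19.2 in GCaMP6s-. Its GFP+ libraries held 51.8, 47.7, 152 and 134 CPM, against 11, 30, 16.2 and 38.3 in GFP-. The GCaMP6s+ and GCaMP6s- ranges came closest at 48.2 and 39.8 CPM, and the average change was 1.96 ± 0.36 (adjusted p = 0.00164). Protein kinase D1, which acts downstream of diacylglycerol, is encoded by prkd1, at 101, 76.1, 61.4 and 86.1 CPM in GCaMP6s+ libraries, against 16.9, 15.7, 7.21 and 9.97 in GCaMP6s-. The GFP+ values of prkd1 were 77.7, 22.4, 8.18 and 9.3 CPM, against 1.71, 6.78, 1.55 and 8.15 in GFP-. In the GFP line the groups nearly met at 8.18 and 8.15 CPM, and the average change was 2.70 ± 0.53 (adjusted p = 0.00259). Diacylglycerol kinase alpha, which converts diacylglycerol into phosphatidic acid, is encoded by dgkaa and changed by 1.82 ± 0.30 (adjusted p = 0.00071), with GCaMP6s+ libraries at 40.6, 29, 59.6 and 45.6 CPM, against 10.5, 9.1, 10.1 and 18.9 in GCaMP6s-, and GFP+ libraries at 31.1, 73.4, 52.5 and 43.4 CPM, against 9.15, 9.43, 23.2 and 16 in GFP-.

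The calcium, calmodulin and protein kinase C list as a whole did not move 1 way. Of its 37 tested genes, 3 were higher in both lines (prkcda, ryr3 and itpr1b), against 3.61% of all genes. Another 3 were lower (calb2a and calb2b among them), against 8.1% of all genes, so the lower count was no larger than the common share. The list's medians were 0.79 in the GCaMP6s line and -1.46 in the GFP line, against -0.059 and -0.32 over all genes tested. The ryanodine receptor gene ryr3 and the inositol trisphosphate receptor gene itpr1b, which release calcium from the stores, changed by 2.25 ± 0.53 and 1.54 ± 0.40 (adjusted p = 0.00874 and 0.0159). The increase in ryr3 was 3.61 ± 0.79 in the GCaMP6s line and 0.90 ± 0.72 in the GFP line, where the libraries overlapped at 5.39, 3.52, 5.31 and 25.6 CPM in GFP+ and 4.04, 2, 8.65 and 6.75 in GFP-. Calretinin, a calcium buffer, is encoded by calb2a and was lower at 7.26, 10.2, 5.23 and 3.39 CPM in GCaMP6s+ libraries, against 26.5, 33.7, 17.9 and 23 in GCaMP6s-. Its GFP+ libraries were at 14.8, 15, 3.97 and 6.95 CPM, against 29.4, 26.6, 30.5 and 25.3 in GFP-. No + library reached a - library of its line, and the average change was -1.71 ± 0.36 (adjusted p = 0.00398). The higher count of this list was 5 in place of 3 without GCaMP6s+ replicate 3, GCaMP6s- replicate 2, GFP+ replicate 1 or GFP+ replicate 3.

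Sulf2b, also among the 14, encodes an extracellular enzyme that removes 6-O-sulfate from heparan sulfate. It was at 507, 463, 434 and 454 CPM in GCaMP6s+ libraries, against 87.6, 90.4, 61.9 and 78.1 in GCaMP6s-. The sulf2b level was 312, 268, 364 and 258 CPM in GFP+, against 61.2, 76.1, 78.9 and 73.2 in GFP-. The lowest + library, at 258 CPM, lay far above the highest - library, at 90.4 CPM, and the average change was 2.30 ± 0.12 (adjusted p = 2.68e-08). Of 37 tested genes of heparan sulfate synthesis and its core proteins, a list made after values were seen, 6 were higher in both lines and 1 was lower, with medians of -0.13 and 1.03 in the GCaMP6s and GFP lines. Beside sulf2b, the polymerase gene ext1b changed by 1.38 ± 0.20, the 6-O-sulfotransferase gene hs6st1b by 1.86 ± 0.24 and the glypican gene gpc1b by 1.15 ± 0.15 (adjusted p = 0.000243, 0.000102 and 8.86e-05), each without overlap in either line, while sdc2 and hspg2 were higher with overlap and hs6st3b was lower.

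The gene with the largest average change among the 14 was ch25hl2, a cholesterol 25-hydroxylase-like gene, for an enzyme class that makes oxysterols. It was at 42.3, 40.3, 34 and 43 CPM in GCaMP6s+ libraries, against 7.04, 2.99, 5.72 and 5.19 in GCaMP6s-. Its GFP+ level was 235, 106, 849 and 1534 CPM, against 6.94, 8.2, 15.5 and 2.71 in GFP-. The GFP+ libraries spread more than 10-fold, and the change was larger in the GFP line (6.35 ± 0.80) than in the GCaMP6s line (2.93 ± 0.68; difference between lines, adjusted p = 0.024).

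The genes cacng4b, il1rapl1b and nsmfb were among the 14 too. Cacng4b encodes an auxiliary subunit of AMPA glutamate receptors and was at 26.6, 37.9, 25.3 and 28.5 CPM in GCaMP6s+ libraries, against 4.36, 9.61, 3.65 and 10.3 in GCaMP6s-. Cacng4b in GFP+ libraries was at 10.2, 24.9, 66.9 and 40.3 CPM, against 2.42, 2.61, 6.56 and 1.84 in GFP-. The average change of cacng4b was 2.74 ± 0.44 (adjusted p = 0.000581). The synaptic adhesion gene il1rapl1b changed by 2.71 ± 0.55 (adjusted p = 0.00336), from low levels, at 9.2, 11, 7.75 and 16.4 CPM in GCaMP6s+ libraries, against 4.16, 2.6, 0.518 and 5.88 in GCaMP6s-. Nsmfb, related to a mammalian messenger between NMDA receptors and the nucleus, changed by 2.23 ± 0.44 (adjusted p = 0.00271), with 1 GFP+ library at 134 CPM and the other three between 20.3 and 31.7. Named after its values were seen, the AMPA receptor subunit gene gria2b was at 737, 590, 607 and 662 CPM in GCaMP6s+ libraries, against 128, 178, 168 and 201 in GCaMP6s-, and its average change was 1.79 ± 0.12 (adjusted p = 4.27e-07). Gria2b in GFP+ libraries was at 634, 535, 653 and 429 CPM, against 159, 166, 216 and 185 in GFP-.

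The remaining genes of the 14 had unlike roles. Aoc1 encodes a copper amine oxidase that degrades histamine in mammals and changed by 2.92 ± 0.43 (adjusted p = 0.00026). Cyth1b, for an activator of Arf GTPases, changed by 2.08 ± 0.27 (adjusted p = 9.18e-05). Ezh1, for a histone H3 methyltransferase of the Polycomb complex, changed by 1.80 ± 0.27 (adjusted p = 0.00032). Limch1b, for an actomyosin regulator, changed by 2.38 ± 0.37 and ppp4r4, for a regulatory subunit of protein phosphatase 4, by 2.28 ± 0.33 (adjusted p = 0.000459 and 0.000271). None of the 14 genes lost its call when any 1 library was left out.

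**Figure D2:**
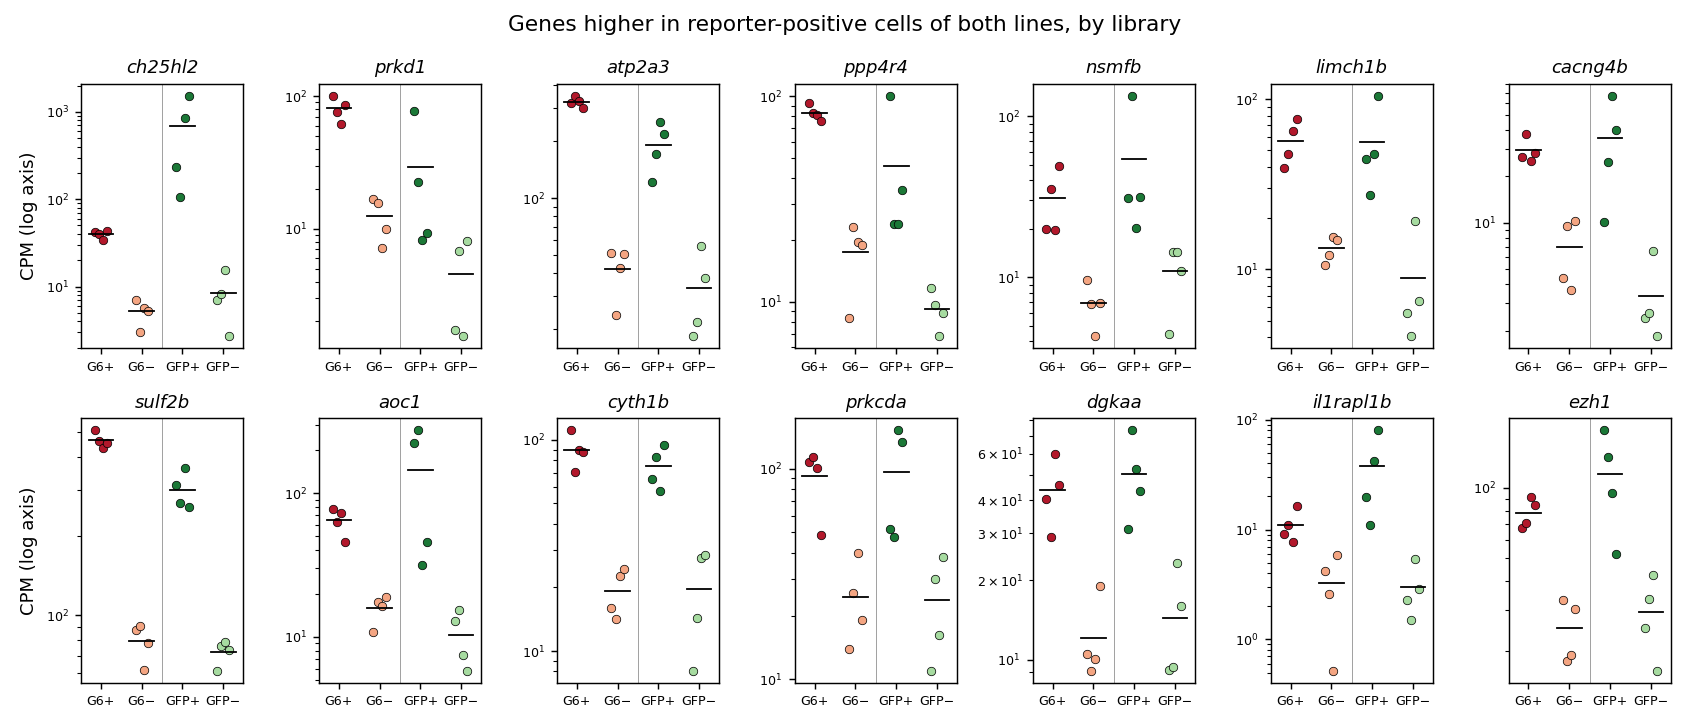
CPM in each library (log axis) of the 14 genes with the largest shared increase, for GCaMP6s+ (G6+), GCaMP6s- (G6−), GFP+ and GFP- libraries, 4 points a group with a bar at the mean. In every panel the + points lie above the - points of the same line, because only such genes were eligible. GFP+ points are more spread than GCaMP6s+ points for most genes.

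Radial glial genes were higher in both lines for 7 of 19 tested, against 3.61% of all genes, and the list's median change was above 0 in the GFP line only. The list's medians were -0.25 in the GCaMP6s line and 2.84 in the GFP line. Its summed share of counts was 6.67 to 10.7% in GFP+ libraries, against 0.463 to 1.28% in GFP- libraries, and 0.416 to 0.685% in GCaMP6s+ libraries, against 0.433 to 0.788% in GCaMP6s- libraries. The shares overlapped in the GCaMP6s line and lay wide apart in the GFP line. Another 6 genes of the list (fabp7a, id1, sox2, mdka, atp1b4 and mfge8a) were higher on average with opposite signs in the lines.

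Only slc1a3b of the 7 separated the groups in both lines. It encodes a glutamate transporter of astroglia and was at 220.1, 256, 189.6 and 168 CPM in GCaMP6s+ libraries, against 56.6, 66.9, 81 and 111 in GCaMP6s-. In GFP+ libraries slc1a3b was at 1925, 2116, 7454 and 6830 CPM, against 101, 69.2, 235 and 156 in GFP-. The change was 1.40 ± 0.45 in the GCaMP6s line and 5.03 ± 0.52 in the GFP line, and these differed (adjusted p = 0.00145). The intermediate filament gene gfap was at 357, 234, 172 and 152 CPM in GFP+ libraries, against 14.8, 6.27, 36.9 and 22.3 in GFP-, and at 28.1, 30.5, 30.1 and 31.8 in GCaMP6s+, against 11.2, 13.7, 34.2 and 11.1 in GCaMP6s-, where 1 negative library lay above all positive ones. Glutamine synthetase, encoded by glula, changed by 3.58 ± 0.43 in the GFP line and 0.41 ± 0.39 in the GCaMP6s line (difference between lines, adjusted p = 0.00156). The remaining 4 were slc1a2b, cx43, s100b and cyp19a1b, the brain aromatase gene. Outside this list, the receptor gene fgfr3 and the neurotrophin receptor gene ntrk2a, known from mammalian astrocytes, were higher without overlap in both lines. They changed by 1.84 ± 0.11 and 2.33 ± 0.17 (adjusted p = 2.02e-07 and 6.75e-07). Both were picked after their values were seen and do not stand for astrocyte genes as a class.

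Glycolysis genes, a list made after values were seen, were higher in both lines for 11 of 28 tested and lower for 3. Of all genes, 3.61% were higher and 8.1% lower. The list's medians were 0.20 and 0.75 in the GCaMP6s and GFP lines. Phosphoglycerate kinase, pgk1, was at 584, 584, 507 and 516 CPM in GCaMP6s+ libraries, against 276, 314, 346 and 301 in GCaMP6s-. The pgk1 level was 613, 575, 746 and 704 CPM in GFP+, against 270, 254, 306 and 359.8 in GFP-. All + libraries lay above all - libraries of either line (average 0.99 ± 0.096, adjusted p = 7.66e-06). The same held within each line for pkma, for a pyruvate kinase (0.85 ± 0.098), aldocb, for the brain aldolase (1.37 ± 0.12), gapdhs (0.89 ± 0.09) and pfklb, for a phosphofructokinase (2.23 ± 0.22; adjusted p = 3.17e-05, 2.7e-06, 1.01e-05 and 9.51e-06), and for gpia. The 3 lower genes were pfkma, aldoab and aldoca. The higher count was 7 without GCaMP6s- replicate 1, and the lower count was 1 without GCaMP6s+ replicate 1 and 5 without any 1 of the GFP+ libraries. Of 19 oxidative phosphorylation genes, 2 were higher (sdha, 0.40 ± 0.095, and ndufa9a, 0.42 ± 0.14; adjusted p = 0.00863 and 0.0493) and none was lower, between 1 and 3 higher with single libraries left out. The ndufa9a call was lost in 11 of the 16 fits that left out a library, with an adjusted p of up to 0.0964.

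Erythrocyte genes were the most uniform of the lower lists. Of 13 tested, 12 were lower in both lines, against 8.1% of all genes, and 10 of them without overlap in either line, against 2.86%. A gene can pass the filter on low counts through - libraries alone, and it can then only be lower. With a stricter filter (1 CPM or more in at least 8 libraries), 6 of 7 tested were lower, against 1143 of all 16191 genes. The - libraries of both lines together can still meet this filter alone, so it does not remove that limit. The medians of the 13 genes were -5.03 in the GCaMP6s line and -9.07 in the GFP line. With groups that had no counts set at their limit of 3 counts, they were -4.98 and -6.83. Hbaa1, an adult alpha globin gene, was at 15.3, 10.1, 15.4 and 7.73 CPM in GCaMP6s+ libraries, against 304, 333, 472 and 471 in GCaMP6s-. Hbaa1 in GFP+ libraries was at 0.0627, 0, 0.142 and 1.01 CPM, against 322, 506, 183 and 219 in GFP-. No + library came within 10-fold of a - library (average -7.45 ± 0.63, adjusted p = 2.41e-06). The beta globin genes ba1 and ba1l changed by -7.23 ± 0.76 and -6.60 ± 0.87 (adjusted p = 1.5e-05 and 0.000116), and since globin copies are alike in sequence, how reads were split among them is uncertain.

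Genes of the red cell membrane fell with the globins. Slc4a1a, for the band 3 anion exchanger, was at 18.4, 6.13, 6.37 and 0.0488 CPM in GCaMP6s+ libraries, against 163, 164, 114 and 88.3 in GCaMP6s-. It had 2 counts over all GFP+ libraries, against 24230 over GFP- libraries, a level 9420-fold lower (exact 95% counting interval 2610 to 77800). Epb41b, for protein 4.1, was at 3.21, 0.214, 2.35 and 0.975 CPM in GCaMP6s+ libraries, against 27.6, 33.1, 28.4 and 16.2 in GCaMP6s-, and had no counts in GFP+ libraries, at least 1230-fold lower than 28.5, 34.5, 18.6 and 28.6 CPM in GFP-. The spectrin gene sptb had counts in 1 GCaMP6s+ library and in no GFP+ library, at least 1060-fold lower than in GFP- (adjusted p of the average = 1.62e-05, 1.11e-05 and 0.00344 for the 3 genes). The exception on the list was cahz, a carbonic anhydrase gene, at 1046, 854, 964 and 926 CPM in GFP+ libraries, against 476, 579.9, 352 and 486 in GFP-, and at 64.9, 60.5, 67.8 and 30.6 in GCaMP6s+, against 456, 369.7, 406 and 224 in GCaMP6s-, so that its sign differed between the lines. Without cahz, the list's share of counts was 0.00547 to 0.0106% in GCaMP6s+ libraries, against 0.19 to 0.276% in GCaMP6s-, and 1.88e-05 to 0.000916% in GFP+ libraries, against 0.117 to 0.296% in GFP-.

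Vessel genes were lower for 6 of 24 tested and higher for none, with medians of -1.19 and -3.16 in the GCaMP6s and GFP lines. The list's summed share of counts did not follow in the GFP line: it was 0.0151 to 0.0262% in GCaMP6s+ libraries, against 0.0363 to 0.0493% in GCaMP6s-, and 0.0535 to 0.106% in GFP+ libraries, against 0.031 to 0.0481% in GFP-. Notch3, a receptor gene of mural cells that other cells express as well, was at 569.6, 291, 915 and 1060 CPM in GFP+ libraries, against 49.4, 84.2, 59.1 and 112 in GFP-, and at 53.3, 74, 40.6 and 59.6 in GCaMP6s+, against 127, 112, 110 and 161 in GCaMP6s-. It lay apart in both lines with opposite signs. Mrc1a, a mannose receptor gene of lymphatic-type endothelium, was at 8.33, 2.09, 11.7 and 25.6 CPM in GCaMP6s+ libraries, against 107, 105, 111 and 116 in GCaMP6s-. It had no counts in GFP+ libraries and 77.3, 108, 48.1 and 60.5 CPM in GFP-, at least 3270-fold lower. Flt4, for the lymphatic VEGF receptor, had counts in 1 of 4 GCaMP6s+ libraries (8.44 CPM), against 22.9, 23.9, 24.5 and 18.8 CPM in GCaMP6s-, and 3 counts over GFP+ libraries, against 2006 over GFP- libraries, 520-fold lower (exact 95% counting interval 178 to 2520). Flt4, which is on no list, passed at an adjusted p of 0.0144 and mrc1a at 3.32e-06. The VEGF receptor gene kdrl had no counts in any + library, but neither had 1 of the GCaMP6s- libraries. The tight junction gene cldn5b, abcb4, egfl7 and kcnj8 made up the rest. Of the meningeal list, 1 of 13 was lower (col1a2, with 3 without GFP+ replicate 1 or 4), against 8.1% of all genes. Of the lymphoid list, 1 of 6 was lower (il7r, which passed in none of the 16 fits without a library). No microglial gene of 18 passed in the average contrast with a shared sign, and this list's share was 0.351 to 0.814% in GCaMP6s+ libraries, against 0.229 to 0.312% in GCaMP6s-, and 0.0111 to 0.125% in GFP+ libraries, against 0.244 to 0.339% in GFP-.

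**Figure D3:**
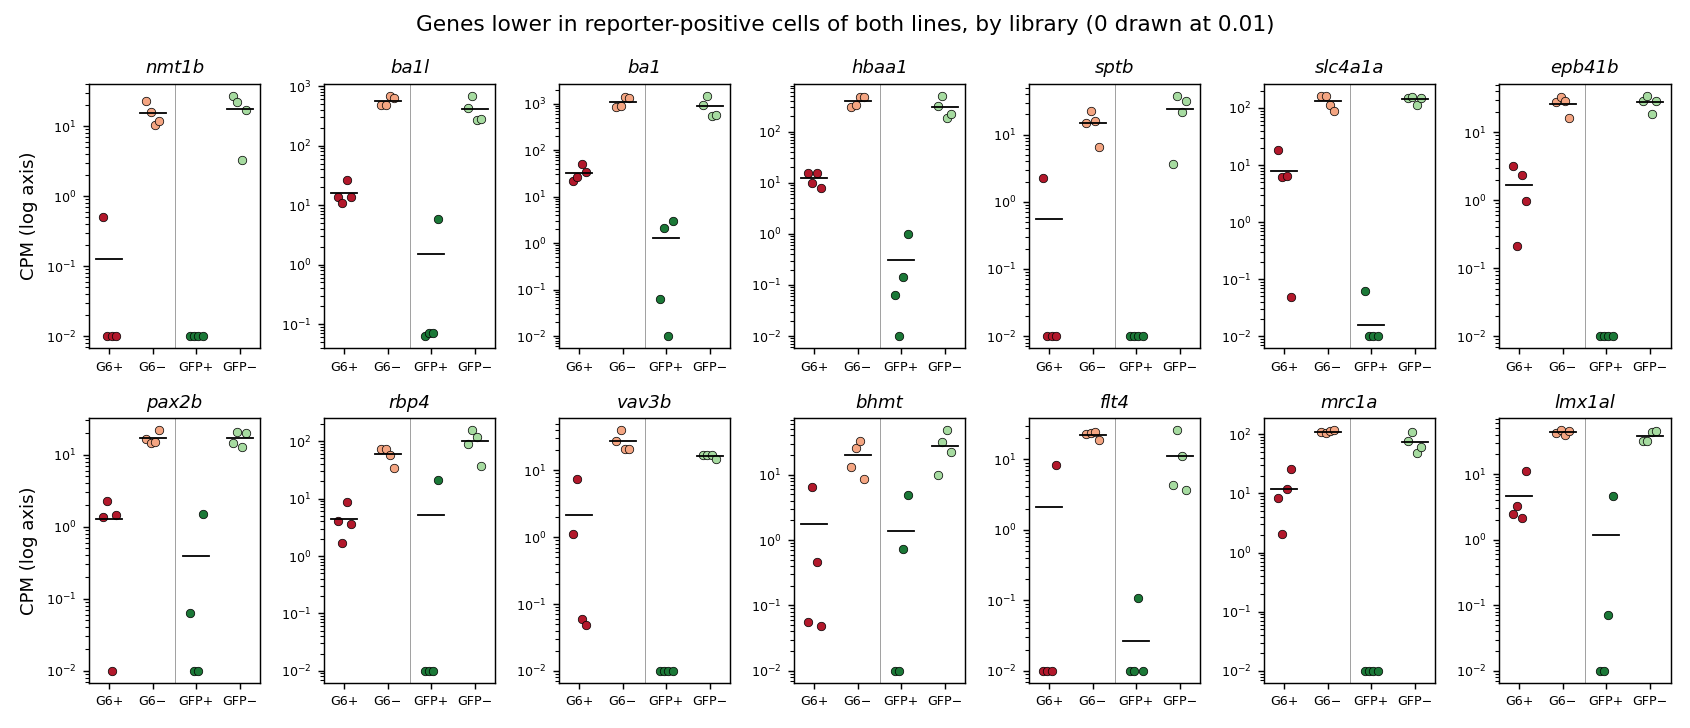
CPM in each library (log axis, with 0 drawn at 0.01) of the 14 genes with the largest shared decrease, for GCaMP6s+ (G6+), GCaMP6s- (G6−), GFP+ and GFP- libraries, 4 points a group with a bar at the mean. The globin genes ba1, ba1l and hbaa1 keep low values in GCaMP6s+ libraries and are close to 0 in GFP+ libraries. The + points of every panel lie below the - points of their line, because only such genes were eligible.

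Another 5 of the 14 largest decreases lay outside the blood, vessel and regional groups. Nmt1b, for an N-myristoyltransferase, had counts in 1 GCaMP6s+ library and none in GFP+ libraries, at least 776-fold lower than in GFP- (adjusted p = 0.000636). Vav3b, for a guanine nucleotide exchange factor, was at 1.13, 7.31, 0.0587 and 0.0488 CPM in GCaMP6s+ libraries, against 27.6, 39.6, 20.8 and 20.7 in GCaMP6s-, and at 0 in all GFP+ libraries, at least 731-fold lower than in GFP- (adjusted p = 0.000737). Lmx1al, a LIM homeobox gene, was at 2.48, 3.24, 2.14 and 11 CPM in GCaMP6s+ libraries, against 41.7, 46.4, 39.6 and 44.7 in GCaMP6s-, with 0, 0, 0.0709 and 4.71 CPM in GFP+, against 31.7, 32, 43.4 and 45.4 in GFP- (average -4.08 ± 1.01, adjusted p = 0.012). Rbp4, for the retinol carrier, was at 4.11, 1.66, 8.63 and 3.56 CPM in GCaMP6s+ libraries, against 74.5, 73.4, 58 and 34.4 in GCaMP6s-, and at 0, 0, 0 and 20.9 CPM in GFP+, against 88.5, 154, 118 and 37.4 in GFP- (adjusted p = 0.0347). Bhmt, for betaine-homocysteine methyltransferase, changed by -3.91 ± 1.25 (adjusted p = 0.0461). The rbp4 and bhmt calls were lost in 10 and 12 of the 16 fits that left out a library, with an adjusted p of up to 0.077 and 0.0947.

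Regional genes of other brain areas were lower. Of 28 genes of the midbrain, hindbrain and cerebellum, 20 were lower in both lines, 1 was higher (ca8), and the medians were -2.25 and -3.39 in the GCaMP6s and GFP lines. Otx2 is on this list but marks the forebrain as well as the midbrain, so it is not particular to other brain areas. It was at 55.4, 43.9, 77.4 and 70.4 CPM in GCaMP6s+ libraries, against 385, 360.3, 329 and 389 in GCaMP6s-. Otx2 in GFP+ libraries was at 54.8, 73.7, 23 and 47.5 CPM, against 325, 355, 375 and 394 in GFP-. The change was -2.57 ± 0.28 in the GCaMP6s line and -2.87 ± 0.29 in the GFP line (difference between lines, adjusted p = 0.725), and averaged -2.72 ± 0.20 (adjusted p = 6.97e-07). The Engrailed gene en2b changed by -1.90 ± 0.21, en1b by -2.04 ± 0.33, pax7a by -2.59 ± 0.33 and zic2a by -1.72 ± 0.20 (adjusted p = 2.84e-05, 0.0006, 8.7e-05 and 3.42e-05), each without overlap in either line. Pax2b, which patterns the midbrain-hindbrain boundary, was at 1.38, 2.25, 0 and 1.44 CPM in GCaMP6s+ libraries, against 14.7 to 21.7 in GCaMP6s-, and at 0.0627, 0, 0 and 1.5 CPM in GFP+, against 14.3, 20.7, 12.7 and 20.1 in GFP- (average -4.58 ± 1.11, adjusted p = 0.0112).

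Telencephalic genes were lower too, and few hindbrain hox genes were. Of 17 telencephalic genes, 9 were lower and none higher, with medians of -1.85 in the GCaMP6s line and -3.93 in the GFP line (-3.90 with groups at 0 set at their limit). Eomesb, a T-box gene of pallial neurons, was at 5.66, 2.92, 14.4 and 17.8 CPM in GCaMP6s+ libraries, against 68.2, 59.4, 97.1 and 67.2 in GCaMP6s-, and at 0 in all GFP+ libraries, at least 4530-fold lower than 116, 116, 51.6 and 124 CPM in GFP- (adjusted p = 1.69e-06). Of 16 hindbrain hox genes, 3 were lower (hoxb8a, hoxc5a and hoxc6a, 1 without GFP- replicate 1), none without overlap, with medians of -2.36 in the GCaMP6s line and -0.16 in the GFP line. The hox share of counts was 0.00108 to 0.00305% in GCaMP6s+ libraries, against 0.00821 to 0.0126% in GCaMP6s-, and 0.00578 to 0.0202% in GFP+ libraries, against 0.0085 to 0.0147% in GFP-, where the groups overlapped. Of 8 photoreceptor and pineal genes, 5 were lower, but 0 to 4 with any 1 library left out and none without GCaMP6s+ replicate 4 or GFP- replicate 2.

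The hypothalamic transcription factor list itself had more lower than higher genes. Of 42 tested, 3 were higher in both lines, against 3.61% of all genes, and 12 were lower, against 8.1%, with medians of -1.18 in the GCaMP6s line and -1.32 in the GFP line (-0.90 with groups at 0 set at their limit). The negative fractions are the non-LH and non-cH cells of whole brains, so by design they include hypothalamic cells that the driver did not label. The part of such cells in these counts was not tested, and the fractions are called here by their reporter. The higher genes were nkx2.4a, nkx2.4b and shha. Nkx2.4a was at 79.4, 64.5, 89.2 and 62.5 CPM in GCaMP6s+ libraries, against 45.4, 49.1, 18.3 and 20.2 in GCaMP6s-. Nkx2.4a in GFP+ libraries was at 80.9, 213, 122 and 72 CPM, against 34.4, 22.2, 36.2 and 30.9 in GFP-. The groups did not overlap in either line (average 1.56 ± 0.28, adjusted p = 0.00138). Nkx2.4b changed by 1.18 ± 0.31 and shha, for Sonic hedgehog, by 1.59 ± 0.38 (adjusted p = 0.0162 and 0.00929), shha with 1 GFP+ library, at 7.62 CPM, below all GFP- libraries. Nkx2.1, the basal hypothalamic factor, was at 15.4, 12, 11.4 and 16.8 CPM in GCaMP6s+ libraries, against 11.2, 9.39, 10.2 and 9.38 in GCaMP6s-, and at 24.9, 39.3, 8.61 and 15.7 CPM in GFP+, against 9.65, 17.1, 8.09 and 6.39 in GFP-, a difference that did not pass (0.79 ± 0.36, adjusted p = 0.173).

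Among the 12 lower genes were factors of neurosecretory and mammillary neurons. Otpb, which acts in neuroendocrine cells, was at 8.84, 7.82, 6.75 and 7.66 CPM in GCaMP6s+ libraries, against 35.5, 30.2, 19 and 21.5 in GCaMP6s-. Otpb in GFP+ libraries was at 0, 0, 0 and 1.45 CPM, against 21.1, 21.8, 27.3 and 31.3 in GFP- (average -3.93 ± 0.92, adjusted p = 0.00886). All + libraries lay below all - libraries of their line. Its copy otpa had 1 GFP+ library at 16.1 CPM and 3 at 0, against 37, 43.4, 49 and 24.9 in GFP-, and did not pass (-2.39 ± 1.15, adjusted p = 0.201), but passed at 2.1e-05 without GFP+ replicate 3. Sim1a had 2 counts over GCaMP6s+ libraries, against 296 over GCaMP6s- libraries (129-fold lower, exact 95% counting interval 35.3 to 1070), and none over GFP+ libraries (adjusted p = 0.0117). Its GFP- libraries were at 0, 4.45, 0 and 1.5 CPM, so the groups of the GFP line overlapped at 0. The homeobox gene uncx was at 6.98, 11.6, 14 and 6.19 CPM in GCaMP6s+ libraries, against 58.3, 49.5, 45 and 46.5 in GCaMP6s-, and at 0 in all GFP+ libraries, at least 2350-fold lower than 42.3, 72.1, 45.7 and 50.9 CPM in GFP- (adjusted p = 2.78e-07). Lef1, a Wnt pathway factor, changed by -2.30 ± 0.38 (adjusted p = 0.000689). Rx3, a factor of early hypothalamic cells, had opposite signs: it was at 17.8, 23.6, 21.9 and 54 CPM in GCaMP6s+ libraries, against 4.62, 8.8, 2.85 and 6.73 in GCaMP6s-, and in 1 of 4 GFP+ libraries at 7.58 CPM and 0 in the others, against 15.4, 4.47, 4.49 and 4.1 in GFP-. Its average change was 0.22 ± 1.09 (adjusted p = 0.944), and -4.37 without GFP+ replicate 3.

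Neuropeptide genes were lower for 9 of 31 and higher for 2, with medians of -0.87 and -2.87 in the GCaMP6s and GFP lines (-2.44 in the GFP line with groups at 0 set at their limit). Their summed share of counts was higher without overlap in the GCaMP6s line, at 0.0594 to 0.0697% in GCaMP6s+ libraries, against 0.0358 to 0.0548% in GCaMP6s-, while in the GFP line it was 0.00596 to 0.0428% in GFP+ libraries, against 0.0318 to 0.0498% in GFP-. Trh, for thyrotropin-releasing hormone, was at 93, 95.9, 31.8 and 55.2 CPM in GCaMP6s+ libraries, against 1.46, 6.28, 2.16 and 2.93 in GCaMP6s-. Trh in GFP+ libraries was at 25.1, 0, 27.5 and 30.6 CPM, against 7.8, 4.78, 7.59 and 8.62 in GFP-. The GCaMP6s groups lay apart, while 1 GFP+ library had no counts and the other three lay above the GFP- libraries (average 2.98 ± 0.79, adjusted p = 0.0178). The enkephalin gene penkb changed by 1.70 ± 0.51 in the GCaMP6s line and 0.88 ± 0.50 in the GFP line, where the groups overlapped (average adjusted p = 0.0231). Npy, for the appetite peptide neuropeptide Y, was at 4.62, 15.3, 9.02 and 6.63 CPM in GCaMP6s+ libraries, against 14.3, 18.1, 22 and 28.4 in GCaMP6s-, with 1 overlapping library. Npy in GFP+ libraries was at 0, 0.0712, 0.0709 and 0 CPM, against 32.7, 40.6, 23.9 and 12.5 in GFP- (average -5.39 ± 0.63, adjusted p = 3.42e-05). Pmch, for melanin-concentrating hormone, had 2 counts over GCaMP6s+ libraries, against 2169 over GCaMP6s- libraries (943-fold lower, exact 95% counting interval 261 to 7790), and none over GFP+ libraries, though 1 GCaMP6s- and 2 GFP- libraries also had none (adjusted p = 0.0109). The oxytocin gene oxt, pmchl, npvf, kiss1, sst1.1, sst1.2 and sst6 were the other lower genes.

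Of the peptide genes named whatever their result, trh, npy and pmch, described above, passed with a shared sign, and tac1, pomca and hcrt did not. Tac1, the tachykinin precursor gene, was at 105, 75.6, 122 and 95.4 CPM in GCaMP6s+ libraries, against 19.9, 15.9, 28.6 and 21.9 in GCaMP6s-. Tac1 in GFP+ libraries was at 0.0627, 92.1, 3.08 and 7.87 CPM, against 14, 16.5, 18.2 and 14.3 in GFP-. The GCaMP6s groups did not overlap (2.21 ± 1.11, adjusted p in that line = 0.569 in the joint model and 0.00016 with the line fitted alone), 1 GFP+ library lay above and 3 below all GFP- libraries, and the average did not pass (1.46 ± 0.77, adjusted p = 0.249, or 0.0362 without GFP+ replicate 1). Pomca did not pass (-2.76 ± 1.26, adjusted p = 0.174). It passed without GFP+ replicate 4 (0.000868), and with limma's voom in place of edgeR's test (-3.85, adjusted p = 0.048). Hcrt was at or below 1.21 CPM in every library, agrp had 12 counts in all, each of them in GCaMP6s- libraries, and gh1 had no counts. Of 30 tested genes of the growth hormone and tachykinin axis, 2 were higher (ghra and igf2b) and 4 lower (sst1.1, sst1.2, tacr1a and tacr3l), with medians of 0.50 and -0.18. The growth hormone receptor gene ghra was at 6.28, 6.45, 12.4 and 10.6 CPM in GCaMP6s+ libraries, against 4.29, 6.81, 5.14 and 2 in GCaMP6s-, and at 44.7, 20.7, 19.1 and 23.6 CPM in GFP+, against 4.18, 10.9, 8.11 and 11.1 in GFP- (average 1.31 ± 0.39, adjusted p = 0.0313), and its call was lost in 7 of the 16 fits that left out a library, at an adjusted p of up to 0.0656. The growth factor gene igf2b was at 10.4, 15.7, 21.5 and 15.9 CPM in GCaMP6s+ libraries, against 9.09, 9.78, 5.92 and 11.6 in GCaMP6s-, where 1 of 4 + libraries lay inside the - range, and at 81.5, 51.7, 73.1 and 29.9 CPM in GFP+, against 12.9, 22.5, 7.37 and 8.62 in GFP- (average adjusted p = 0.005). No gene of the pituitary list reached the filter on low counts.

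The list of granins and prohormone processing had medians of opposite sign, 1.12 in the GCaMP6s line and -0.77 in the GFP line. Its share of counts was 0.29 to 0.355% in GCaMP6s+ libraries, against 0.151 to 0.168% in GCaMP6s-. In the GFP line it was 0.0447 to 0.269% in GFP+ libraries, against 0.165 to 0.193% in GFP-, where the groups overlapped. Of 11 genes of granins and prohormone processing, 2 were higher: chgb, for chromogranin B, by 2.71 ± 0.52, and pam, for the enzyme that amidates peptides, by 0.69 ± 0.13 (adjusted p = 0.00217 and 0.0025). Chgb was at 126, 10.84, 28.9 and 18.7 CPM in GCaMP6s+ libraries, against 16.95, 28.99, 20.27 and 13.85 in GCaMP6s-. These groups overlapped, and only the library at 126 CPM lay above all GCaMP6s- libraries. In GFP+ libraries chgb was at 377.8, 665.8, 97.47 and 168 CPM, against 26.04, 19.56, 10.56 and 13.96 in GFP-, without overlap. Pam was at 325, 390.2, 406 and 394 CPM in GCaMP6s+ libraries, against 194, 129, 193 and 181 in GCaMP6s-, and at 264, 198, 234 and 150.4 CPM in GFP+, against 208, 153, 155 and 191 in GFP-, where the groups overlapped. Of 23 receptors for feeding signals, 2 were higher, with medians of 0.60 and -1.14. The receptor for thyrotropin-releasing hormone, trhrb, was at 19.8, 3.4, 14.9 and 6.22 CPM in GCaMP6s+ libraries, against 1.65, 1.68, 1.9 and 2.57 in GCaMP6s-. It was at 25.1, 61.7, 0 and 7.45 CPM in GFP+ libraries and had no counts in GFP-, at least 1350-fold higher (adjusted p of the average = 0.002). The dopamine receptor gene drd2b changed by 1.58 ± 0.48 (adjusted p = 0.0377) and lost its call in 10 of the 16 fits without a library, at up to 0.0822.

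Transmitter genes differed between the lines. Slc17a6a, for a vesicular glutamate transporter, was at 313, 345, 275 and 448 CPM in GCaMP6s+ libraries, against 135, 93.3, 97.3 and 129.8 in GCaMP6s-. It had 2 counts over GFP+ libraries, against 149.5, 101, 98 and 118 CPM in GFP-, a level 7790-fold lower (exact 95% counting interval 2160 to 64300; difference between lines, adjusted p = 3.49e-08). Gad1b, for the enzyme that makes GABA, was at 121, 129.8, 225 and 139 CPM in GCaMP6s+ libraries, against 111, 112, 77.2 and 126 in GCaMP6s-. These groups overlapped, with a change of 0.52 ± 1.13. Gad1b in GFP+ libraries was at 0, 0, 0.0709 and 7.12 CPM, against 181, 119.9, 189.5 and 186 in GFP- (difference between lines, adjusted p = 0.0158). The monoamine genes th2 and tph1a, for tyrosine and tryptophan hydroxylases, were higher in the GFP line: th2 was at 169, 588, 54.8 and 63.2 CPM in GFP+, against 14.7, 3.51, 2.58 and 2.31 in GFP-, and at 0.113, 0, 0.411 and 0 in GCaMP6s+, against 10.6, 5.35, 5.27 and 5.16 in GCaMP6s-. The tph1a level was 368, 625, 39.4 and 44.1 CPM in GFP+, against 8.88, 8.36, 3.75 and 4.15 in GFP-, and 1.58, 6.96, 2.08 and 3.02 in GCaMP6s+, against 5.78, 5.25, 3.84 and 3.19 in GCaMP6s-, where the groups overlapped. Of these genes slc17a6a and th2 passed in each line with opposite signs. Mao, for monoamine oxidase, and abat, for GABA transaminase, passed on average (1.45 ± 0.25 and 1.13 ± 0.28) with a change in the GFP line (2.81 ± 0.37 and 2.06 ± 0.41), while their GCaMP6s groups overlapped (0.087 ± 0.35 and 0.20 ± 0.39). The third gene with a shared sign was th, which was at 0, 0, 0 and 1.22 CPM in GCaMP6s+ libraries, against 4.48, 1.9, 4.02 and 4.29 in GCaMP6s-, and at 0 in all GFP+ libraries, against 2.9, 1.05, 2.38 and 0.158 in GFP- (adjusted p = 0.00106, 0.0123 and 0.0174). These were 1 higher (0 or 1 with single libraries left out) and 1 lower of 16 monoaminergic genes and 1 higher of 8 GABAergic genes (0 to 2 with single libraries left out), and none of 7 glutamatergic genes passed with a shared sign, slc17a6b among them (-1.27 ± 0.65, adjusted p = 0.231, and 0.00266 without GFP+ replicate 3). The shares of all genes tested were 3.61% higher and 8.1% lower.

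Genes of differentiating neurons were lower in both lines for 18 of 25 tested, and none was higher, with medians of -0.96 in the GCaMP6s line and -3.45 in the GFP line. Neurod2, a basic helix-loop-helix factor of young neurons, was at 29.7, 23.8, 71.3 and 45.5 CPM in GCaMP6s+ libraries, against 151, 158, 188 and 158 in GCaMP6s-. Neurod2 in GFP+ libraries was at 0, 0.0712, 0.142 and 0 CPM, against 209, 184, 164 and 220.4 in GFP-. Neither line overlapped (average -6.92 ± 0.46, adjusted p = 4.27e-07), and the fall was larger in the GFP line (adjusted p of the difference = 4.39e-06). Scrt1a, for a zinc finger repressor of migrating neurons, was at 23.9, 27, 46.5 and 27.3 CPM in GCaMP6s+ libraries, against 81.3, 88.7, 83.2 and 79.4 in GCaMP6s-, and at 0 in all GFP+ libraries, at least 5090-fold lower than in GFP- (adjusted p = 2.68e-08). Sox11a changed by -1.49 ± 0.20 (adjusted p = 0.000158).

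Pan-neuronal genes were lower for 11 of 23 and higher for none, but nearly all of the change lay in the GFP line, with medians of -0.080 and -3.24. Their summed share was 1.58 to 1.75% in GCaMP6s+ libraries, against 1.71 to 1.81% in GCaMP6s-, and 0.0987 to 0.352% in GFP+ libraries, against 1.81 to 2.00% in GFP-. Elavl3, for a neuronal RNA-binding protein, was at 1691, 1740, 1653 and 1768 CPM in GCaMP6s+ libraries, against 2975, 2989, 2959 and 2908 in GCaMP6s-. Elavl3 in GFP+ libraries was at 195, 367, 33.2 and 196 CPM, against 2891, 3136, 3053 and 3497 in GFP-. All + libraries lay below all - libraries of their line, and the change of -0.79 ± 0.42 in the GCaMP6s line was smaller than that of -3.99 ± 0.47 in the GFP line (adjusted p of the difference = 0.00227). Its relative elavl4 changed by -2.72 ± 0.19 and the release machinery gene snap25b by -2.37 ± 0.35 on average, and the tubulin regulator stmn1b by -0.17 ± 0.11 in the GCaMP6s line and -2.82 ± 0.11 in the GFP line (average adjusted p = 4.27e-07, 0.000268 and 2.68e-08).

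Proliferation genes were lower for 12 of 28 and higher for none, 11 of them without overlap, against 2.86% of all genes. Their medians were -1.70 and -1.36 in the GCaMP6s and GFP lines. Their summed share of counts was 0.134 to 0.199% in GCaMP6s+ libraries, against 0.454 to 0.515% in GCaMP6s-, and 0.18 to 0.241% in GFP+ libraries, against 0.305 to 0.378% in GFP-. Hmgb2a, for a chromatin protein of dividing cells, was at 162, 127, 182 and 153 CPM in GCaMP6s+ libraries, against 655, 627, 646 and 606 in GCaMP6s-. Hmgb2a in GFP+ libraries was at 105, 62.1, 61.8 and 149 CPM, against 507, 587, 519 and 397 in GFP-. The groups lay apart in both lines (-2.02 ± 0.25 in the GCaMP6s line and -2.41 ± 0.25 in the GFP line, difference between lines, adjusted p = 0.556; average adjusted p = 1.52e-06). Cyclin A2, ccna2, changed by -1.86 ± 0.22 and mki67, the Ki-67 gene, by -2.29 ± 0.29 (adjusted p = 3.41e-05 and 7.88e-05). The replication clamp gene pcna changed by -1.34 ± 0.21 in the GCaMP6s line and by 0.020 ± 0.20 in the GFP line, where the groups overlapped. It was at 162, 197, 193 and 272 CPM in GCaMP6s+, against 558, 518, 472 and 545 in GCaMP6s-. Its GFP+ libraries were at 279, 279.7, 477 and 488 CPM, against 356, 428, 381 and 338 in GFP-. Without GCaMP6s+ replicate 1 the list's count was 6. A list of histone and high-mobility-group genes was made after values were seen. It also holds a few other chromatin genes, cbx3a, cbx5 and lbr among them. Of its 23 tested genes, 18 were lower, those named included, and none higher (medians -0.79 and -1.32). Among the 18 were hmgn2 (-2.15 ± 0.15) and the histone H3.3 gene h3f3a (-1.54 ± 0.20; adjusted p = 4.27e-07 and 7.56e-05). Of the 18, 2 are on the proliferation list too.

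Ribosomal protein genes were lower for 45 of 75 tested and higher for none, 13 of them without overlap, against 2.86% of all genes. Their medians were -1.37 in the GCaMP6s line and -0.63 in the GFP line, and their share of counts was 0.615 to 0.809% in GCaMP6s+ libraries, against 1.39 to 1.68% in GCaMP6s-, and 0.343 to 0.63% in GFP+ libraries, against 0.821 to 1.31% in GFP-. Rplp0, for a protein of the ribosomal stalk, was at 180.1, 328, 379.7 and 353 CPM in GCaMP6s+ libraries, against 841, 726, 697 and 826 in GCaMP6s-. Rplp0 in GFP+ libraries was at 108, 156, 128 and 144 CPM, against 486, 641, 444 and 357 in GFP-. The groups lay apart in both lines (average -1.58 ± 0.16, adjusted p = 1.08e-05). The small-subunit gene rpsa changed by -1.19 ± 0.12 (adjusted p = 7.66e-06), at 369.7, 437, 471 and 482 CPM in GCaMP6s+ libraries, against 962, 1051, 913 and 933 in GCaMP6s-. A list of translation elongation factor genes, which also holds gnb2l1 and tpt1, was made after values were seen. Of its 15 genes, 7 were lower, gnb2l1 and tpt1 included, and none higher (median of the average change -0.79). Among them, eef2b changed by -0.89 ± 0.11 and eef1a1l1 by -0.82 ± 0.09 (adjusted p = 5.92e-05 and 2.14e-05). With size factors of DESeq2 in place of TMM, 43 of the ribosomal protein genes were lower and none was higher. How reads that match more than 1 place were handled is not given, so the read assignment of ribosomal protein genes is uncertain.

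**Figure D4:**
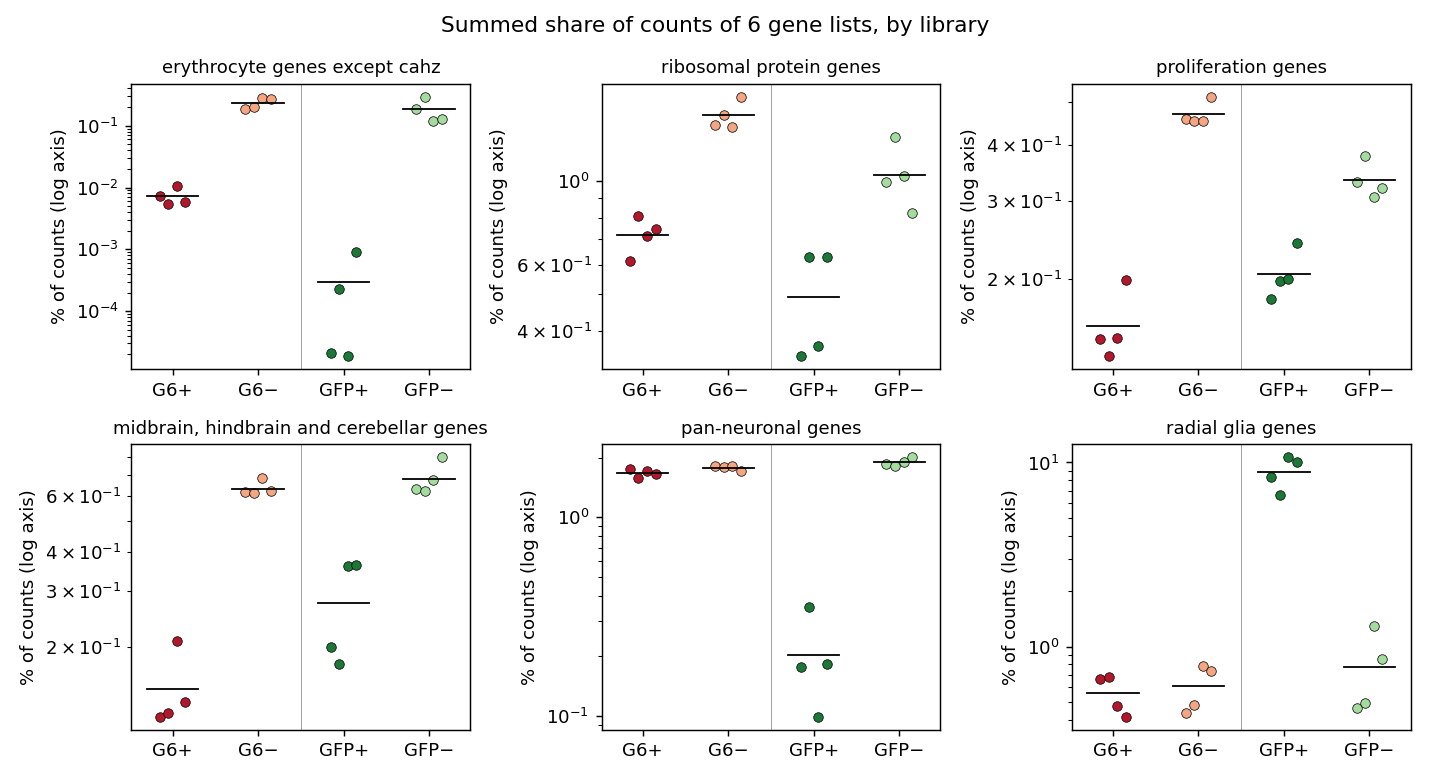
Summed share of counts (%, log axis) of 6 gene lists in each library, for GCaMP6s+ (G6+), GCaMP6s- (G6−), GFP+ and GFP- libraries, with a bar at the mean of 4. Erythrocyte, ribosomal protein, proliferation and midbrain, hindbrain and cerebellar shares were lower in + than in - libraries of both lines, while pan-neuronal shares were far lower, and radial glia shares far higher, in GFP+ libraries alone.

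Genes that respond to handling were looked at because the cells were dissociated and sorted. Of 21 immediate early genes, 4 were higher in both lines (fosab, junba, junbb and btg2) and 1 was lower (dusp1), with medians of 0.31 and 0.73. Junbb, for a subunit of the AP-1 factor, was at 1705, 1626, 1231 and 1482 CPM in GCaMP6s+ libraries, against 1057, 991, 950.5 and 933 in GCaMP6s-. Junbb in GFP+ libraries was at 3677, 3214, 1723 and 2722 CPM, against 1272, 1502, 806 and 877 in GFP-. The groups did not overlap in either line (average 0.98 ± 0.16, adjusted p = 0.000576). The antiproliferative gene btg2 changed by 0.82 ± 0.14 (adjusted p = 0.000829), with a larger change in the GFP line (adjusted p of the difference = 0.0219). Fosab changed by 0.72 ± 0.21 (adjusted p = 0.0294), a call lost in 7 of the 16 fits without a library and at up to 0.0592. Of 17 heat shock and stress genes, 3 were higher (hspa5, hspd1 and gadd45ba, 1.01 ± 0.15, adjusted p = 0.000234) and 2 lower (hspa8 and hsp90ab1, -0.60 ± 0.09, adjusted p = 0.000307). Among all genes tested, 3.61% were higher and 8.1% lower. The part of dissociation and sorting in any change was not tested.

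Of the other glial and ventricular lists, few genes passed. All 13 oligodendrocyte genes had fitted changes below 0 in both lines, with medians of -0.99 and -1.38 in the GCaMP6s and GFP lines, and 2 passed as lower (cnp, -1.61 ± 0.11, adjusted p = 4.27e-07, and cspg4, a call lost in 8 of the 16 fits without a library), and 4 were lower without GFP+ replicate 2. Of 21 genes of ependymal cells and motile cilia, with medians of -0.15 and 2.77 in the GCaMP6s and GFP lines, 16 had opposite signs in the lines. Their share of counts was 0.0249 to 0.134% in GFP+ libraries, against 0.00874 to 0.0146% in GFP-, and 0.00757 to 0.0137% in GCaMP6s+ libraries, against 0.00978 to 0.0134% in GCaMP6s-. Of these genes rfx2 was higher (average adjusted p = 0.00461), at 234, 248, 220.4 and 102 CPM in GFP+ libraries, against 25, 58.9, 51.7 and 38.8 in GFP-, and at 49, 58.5, 25.2 and 45.7 in GCaMP6s+, against 24, 51.9, 42.6 and 36.9 in GCaMP6s-, where the groups overlapped. The share of erythrocyte, radial glial, pan-neuronal and proliferation genes moved with the + and - labels in 1 or both lines, and the part of these cell types in the changes of other genes was not tested.

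**Figure D5:**
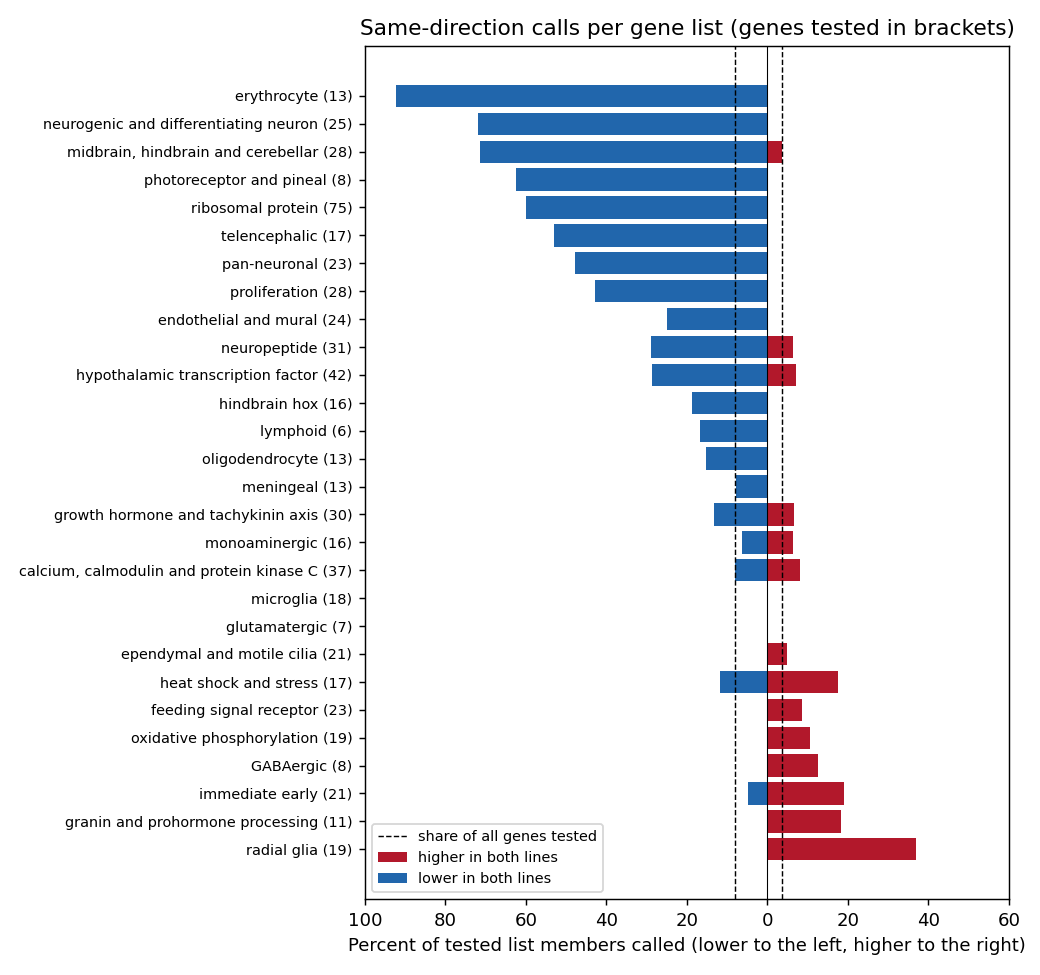
Percent of the tested genes of each list, other than lists made after values were seen, that passed in the average contrast with the same sign in both lines, lower to the left and higher to the right, with the number of genes tested in brackets. Dashed lines mark the shares of all genes tested, 8.1% lower and 3.61% higher. Of the lists drawn, erythrocyte genes reach furthest to the left and radial glia genes furthest to the right.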

How the data were processed

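The deposited table holds raw counts per gene row and library (unnormalised whole numbers), made by the authors with FastQC, STAR and genome build GRCz11, per the submitters' processing notes. The counting tool, its strand setting and its handling of multimapped reads are not given in the sources used here. Of 47038 rows, 9 with broken names were left out. Rows of 1 symbol, told apart by endings such as _1, were summed, which gave 30565 symbols, and 20241 passed edgeR's filterByExpr (minimum count 10). Library totals of 26848940 to 49350823 counts limit the precision of low genes. Counting intervals and the limit of 3 counts set for groups at 0 cover counting error only.

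The 4 group means were fitted to 16 libraries with edgeR 4.0.16 (TMM, robust quasi-likelihood F test, R 4.3.3), two-sided, and p-values were adjusted by Benjamini-Hochberg over all genes tested, with a threshold of 0.05. Replicates are pools of brains, so p-values measure the spread between pools. The pipeline was tested on simulated data, where it missed most of the changed genes at every fold tried, so a gene not called is not shown to be unchanged. Alternatives were DESeq2 1.42.0 size factors and Wald test, limma 3.58.1 voom with quality weights, other filters, rows as deposited, a fit with line and sort as added terms, a replicate block, and each library left out.

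Genes named are the 14 higher and 14 lower with the largest change in the line where it was smaller (groups apart in each line, a level of 10 CPM or more where it is higher, a symbol that is no clone name), the 2 same-direction genes of smallest p in each list, and 20 genes given whatever their result. Other genes named without values are list members with a shared call, apart from the radial glial genes named for opposite signs in the lines. Genes with values outside this rule (ryr3, itpr1b, gria2b, ext1b, hs6st1b, gpc1b, gfap, fgfr3, ntrk2a, the glycolysis genes, cahz, kdrl, notch3, en1b, pax7a, zic2a, nkx2.4a, nkx2.4b, shha, lef1, penkb, oxt, igf2b, sox11a, snap25b, mki67, pcna, hmgn2, h3f3a, eef2b, eef1a1l1, fosab) were chosen after their values were seen. The comparison, its genes and its lists were chosen with earlier results of these data known. Of the listed genes, 684 matched by symbol, 12 by an older symbol and 14 not at all.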

Additional observations from a re-analysis of the deposited data

Results flagged for a closer look

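The change in the GCaMP6s line minus that in the GFP line, on the log2 scale, was tested by edgeR's quasi-likelihood test. It passed for 2440 of all 20241 genes tested (12.1%). Of the 88 genes named and tested, many of them chosen for a large change or small p, it passed for 36. The fitted changes had the same sign in both lines, though several were within their error of 0 in 1 line, for genes with counts in every group: the difference was -3.42 for ch25hl2, 4.32 for ba1, 4.84 for hbaa1, 8.81 for slc4a1a, 9.96 for neurod2, -3.63 for slc1a3b, -3.17 for glula, 2.65 for stmn1b, 2.54 for elavl4, 9.5 for uncx4.1, 8.35 for npy, 0.859 for pam, -2.72 for mao, -1.86 for abat, -1.04 for btg2, -1.5 for gadd45ba, 2.33 for cnp, 11.2 for col1a2, -2.01 for rfx2 and 3.2 for elavl3. Pam had the larger change in the GCaMP6s line and the others in the GFP line. The fitted signs were opposite for slc17a6a (14.2) and th2 (-10.9), which passed in each line, and for gad1b (7.05) and tph1a (-5.82), which passed in the GFP line and overlapped in the GCaMP6s line. Genes with a group at 0 gave 9.11 for epb41b, 8.65 for vav3b, 11.3 for mrc1a, 13.7 for scrt1a, -10.2 for hoxc5a, 12.1 for eomesb, -8.74 for fezf2, 11.6 for uncx, 8.06 for sst1.2, 7.63 for tacr1a, -10.3 for trhrb and 8.96 for cldn5b, fitted values that depend on how zeros are handled and are no bound.

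Outlying libraries were sought for named genes in groups averaging at least 10 CPM, and in each group for library totals, detected genes and the share of the top genes. In 13 of these 237 sets, 1 library stood far from the other 3 by Dixon's 95% criterion, which chance meets in about 1 in 20 sets. In GFP+ libraries these were ppp4r4 at 101 CPM, nsmfb at 134, elavl4 at 99.7 and tac1 at 92.1. In GCaMP6s+ libraries they were scrt1a at 46.5 CPM, chgb at 126 and rx3 at 54. The negative fractions gave dgkaa at 18.9 CPM in GCaMP6s- libraries, and slc4a1a at 112, vav3b at 15, eomesb at 51.6, col1a2 at 1017 and gad1b at 120 CPM in GFP- libraries.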

How the results depend on the processing

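The counts of genes changed in the average contrast and with the same direction were within 1.5 times their reported values with DESeq2 size factors, no filter, a stricter filter, rows as deposited, transfer RNA genes left out, and each library left out. DESeq2's Wald test gave 1691 higher in the average contrast, 1319 higher with a shared sign, and 152 higher and 272 lower called in each line. Voom gave 129 and 461 called in each line, and each line fitted alone 89 and 181, among them 97 of the 135 of the joint model. The fit with line and sort as added terms gave 315 higher and 566 lower in the average contrast, 311 and 566 with a shared direction and 343 lower without overlap. This fit holds 1 common change for both lines, so genes that differ between lines add to its spread, and 876 of its 877 same-direction genes were among the 2369. Setting aside GFP+ replicates 1 and 2 gave 1662 and 3385 in the average contrast, 1272 higher with a shared sign, 337 higher without overlap, and 154 and 306 called in each line. Leaving out single libraries gave 20 to 88 higher and 35 to 159 lower genes called in each line. The main fit did not pair libraries by replicate number. In their deviations from the group means, same-numbered + and - libraries correlated at r between 0.0041 and 0.0641. Other + and - pairs of a line lay between -0.0624 and 0.0421. These ranges overlapped, and weak pairing was not excluded. A replicate block gave 557 higher and 1283 lower in the average contrast, 421 and 957 with a shared direction, and 13 and 20 called in each line, and 1290 of its 1378 same-direction genes were among the 2369. The change of rx3 turned to -1.22 with voom, -2.91 with the block, and lay between -4.37 and 0.573 with single libraries left out, and that of th2 was 0.0715 with added terms and lay between -1.06 and 0.313 with single libraries left out. Of 88 named genes, 33 lost their call with added terms, among them neurod2, scrt1a, uncx, npy, trh, trhrb, otpb, flt4 and glula, and 11 with voom, among them ba1, glula, pmch, sim1a and col1a2. Read as deposited rows, calb2a and ghra lost theirs. The cause of these changes was not tested beyond what the added-terms fit shows by its construction. Genes near 3 counts over a group are limited by depth.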

Other observations

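Changes outside the lists, chosen after their values were seen, include cytoskeletal and calcium-sensor genes that were higher in both lines. Add3b, for the membrane skeleton protein adducin gamma, was at 152, 153, 158 and 155 CPM in GCaMP6s+ libraries, against 3.84, 12.5, 10.3 and 19.2 in GCaMP6s-. Add3b in GFP+ libraries was at 19.6, 34.7, 14.2 and 21.6 CPM, against 8.76, 8.09, 10.1 and 6.57 in GFP-. The change was larger in the GCaMP6s line (3.75 ± 0.44) than in the GFP line (1.42 ± 0.40; difference between lines, adjusted p = 0.0128; average adjusted p = 3.02e-05). Ncalda, for the neuronal calcium sensor neurocalcin, was at 1500, 1167, 1209 and 1125 CPM in GCaMP6s+ libraries, against 333, 366, 335 and 322 in GCaMP6s-, and at 682, 596, 864 and 844 CPM in GFP+, against 334, 408, 388 and 355 in GFP- (average 1.45 ± 0.098, adjusted p = 4.12e-07). Neither gene's + and - libraries overlapped in either line.

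Nrgna, for the calmodulin-binding protein neurogranin, moved in opposite directions, at 224, 209, 169 and 188 CPM in GCaMP6s+ libraries, against 15.2, 13.3, 16.2 and 14.6 in GCaMP6s-, and at 3.07, 0, 3.51 and 2.42 CPM in GFP+, against 16, 18.3, 7.24 and 11.6 in GFP-, so that its average did not pass (adjusted p = 0.552). The immediate early gene egr1 also did not pass (0.11 ± 0.12, adjusted p = 0.648), with 126, 166, 164 and 174 CPM in GCaMP6s+ libraries, against 159, 156, 181 and 171 in GCaMP6s-.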
